A study of Mus musculus with 7 samples.

Results

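The cells described here are those that the authors' deposited expression matrix assigns to cluster 12, called neutrophil-like because of the genes most of them hold. They number 74 of 43745 cells in 16 clusters. The matrix gives counts of unique molecular identifiers (UMIs, one for each captured RNA molecule) for 16272 genes in single cells of whole adult kidneys from C57BL/6 mice aged 4 to 8 weeks, made with droplet barcoding and 3′ end libraries. There were 7 kidneys: 4 labelled WT, and 1 each labelled Cdh16CremTmG, SclCremTmG and Nphs2CremTmG. In these 3, a Cre recombinase driven by a promoter of tubule epithelium, of endothelium or of podocytes switches a membrane-bound red reporter to green. None of the labels names an injury or a treatment. Barcode suffixes split the cells into 7 libraries, but nothing in the sources used here ties a suffix to a labelled mouse. The libraries were therefore treated as 1 group, and no genotypes were compared. Each library is taken as 1 kidney, and p-values measure only the spread between these libraries.

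Neutrophils are short-lived granulocytes that mature in the bone marrow and circulate in blood. They carry preformed granules that are filled in a fixed order during maturation: proteases and myeloperoxidase go into primary granules at the promyelocyte stage, lactoferrin, cathelicidin and related proteins into secondary granules at the myelocyte stage, and gelatinase into tertiary granules later. S100a8 and S100a9 form calprotectin, a calcium- and zinc-binding protein complex that fills the neutrophil cytosol. In a healthy kidney neutrophils are scarce and lie mostly within vessels.

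The libraries held 1383 to 14136 cells, and the median cell held 1630 to 3115 UMIs. Cells in the matrix had 707 to 15000 UMIs each. The series design states 57979 cells. A total of 1962 cells carried a barcode also present in another library, among them 5 cells of cluster 12, and in none of those 5 was the other cell in cluster 12.

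Cluster 12 contributed 3, 13, 2, 7, 18, 23 and 8 cells in libraries 1 to 7. Its share was 0.102% of the cells of library 1 (95% Wilson interval 0.0347 to 0.299). Library 2 had 0.257% (0.150 to 0.439), library 3 had 0.145% (0.0397 to 0.526) and library 4 had 0.259% (0.125 to 0.533). Library 5 had 0.127% (0.0806 to 0.201), library 6 had 0.189% (0.126 to 0.283) and library 7 had 0.150% (0.0759 to 0.295). These intervals cover counting error only and overlap one another. The mean was 0.175% ± 0.0621 (SD, n = 7 libraries), a coefficient of variation of 35.4%. The coefficient of variation was 34.2% for cluster 10, which leads in monocyte marker genes, and 97.5% for cluster 11, which leads in macrophage marker genes. It ran from 68.2% to 114% for clusters 13, 14 and 15, the lymphocyte clusters. Out of the 2707 cells of these 6 immune clusters, cluster 12 made up 0.840% (library 3) to 4.47% (library 7).

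The share of cluster 12 was set against the share of each of the other 5 immune clusters and against the haemoglobin level outside the cluster, over the 7 libraries. In exact two-sided permutation tests none of the 6 relations passed 0.05 after Benjamini-Hochberg adjustment. With cluster 11, Pearson r was -0.35 (permutation p = 0.511, adjusted p = 0.958) and Spearman rho was -0.11 (permutation p = 0.840, adjusted p = 1). Leaving out libraries 1 and 2, farthest from the median of that cluster, gave r = -0.11. With cluster 10, r was -0.19 (permutation p = 0.663, adjusted p = 0.958), and -0.90 (permutation p = 0.0583) in the 5 libraries left without libraries 5 and 6. With the haemoglobin level of the other cells, which ranged from 0.462 to 3027 CPM (counts per 1000000 UMIs), r was 0.09 (permutation p = 0.885, adjusted p = 0.958), and 0.84 (permutation p = 0.150) without libraries 3 and 4. With clusters 13, 14 and 15, r was 0.02, 0.34 and 0.22 (permutation p = 0.958, 0.468 and 0.682, each with an adjusted p of 0.958), and 0.55, -0.24 and 0.04 without the 2 libraries farthest from the median. Spearman rho over the 7 libraries was -0.18 with cluster 10, -0.04, 0.21 and 0 with clusters 13, 14 and 15, and 0.18 with haemoglobin, each with an adjusted permutation p of 1. The red cell genes Hbb-bs, Hbb-bt, Hba-a1, Hba-a2 and Alas2 were all at 0 in cluster 12, although haemoglobin reached 3027 CPM elsewhere in library 3.

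**Figure D1:**
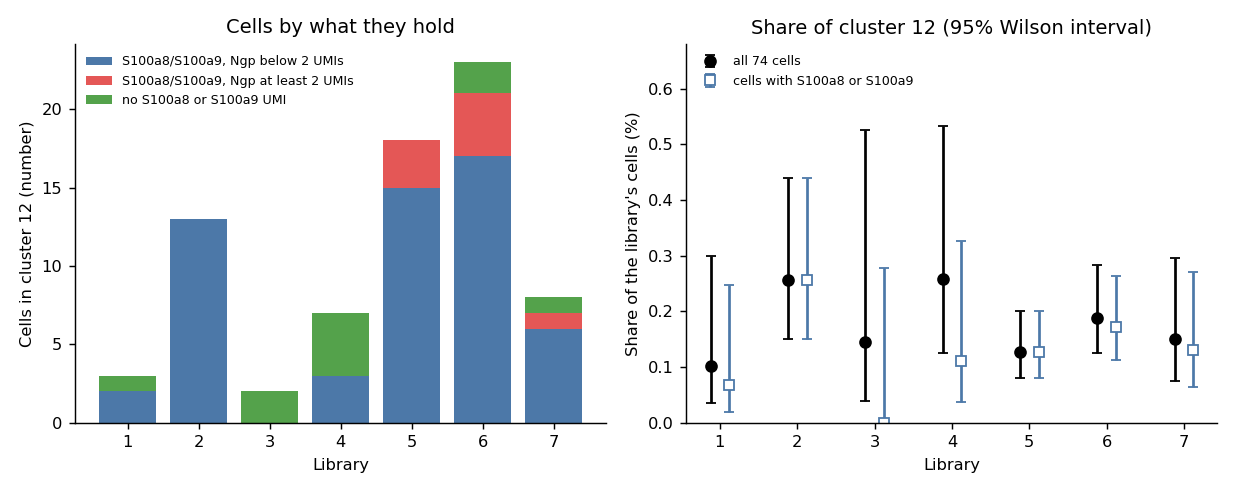
Left, number of cluster 12 cells in each library, coloured by whether they hold S100a8 or S100a9 and Ngp UMIs. Right, cluster 12 as a percentage of each library's cells with 95% Wilson intervals, for all 74 cells (filled circles) and for the 64 that hold S100a8 or S100a9 (open squares). Library 3 has no cell of the second kind, and 4 of the 7 cells of library 4 lack both genes.

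Cluster 12 was not uniform. S100a8 and S100a9 were present in 64 of its 74 cells and absent from 10. Of the 64, 8 held between 34 and 148 UMIs of Ngp, the neutrophilic granule protein, and the other 56 held 0 or 1 (1 UMI in 2 cells). The 3 sets were drawn after these values were seen, so their contents are given as a description with no test. In libraries 1 to 7 the cells without S100a8 or S100a9 numbered 1, 0, 2, 4, 0, 2 and 1. The Ngp-rich cells numbered 3 in library 5, 4 in library 6, 1 in library 7 and 0 elsewhere. The remaining 56 cells came from every library except library 3. All of the cluster's cells in library 3, and most of those in library 4, were therefore cells with no calprotectin RNA. Library 3 held 0 of 1383 cells with S100a8 or S100a9 in cluster 12, which allows a share of up to 0.217% by the limit of 3 counts (the 95% Wilson upper bound is 0.277%). With the 64 cells alone the share was 0.124% ± 0.0804 (SD, n = 7).

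The calprotectin genes lie 22597 bases apart on chromosome 3 (GRCm38, GENCODE annotation), S100a8 at chr3:90668978-90670035 on the plus strand and S100a9 at chr3:90692632-90695721 on the minus strand. Ngp is at chr9:110419747-110423012, and Camp, which codes for cathelicidin, at chr9:109847379-109849617. Ms4a2, the beta chain of the high-affinity IgE receptor, is at chr19:11615523-11623719. The 250 bases before the RefSeq transcription start (build GRCm38.p6) are printed below, 5′ to 3′ on the gene's strand, for the 4 genes that separate the 3 sets of cells. Capitals mark matches on either strand to 3 motifs of factor families that act in granulocytes. These are TTGCNNAA, the letters of the C/EBP family, then GAGGAA, the core bound by PU.1 of the ETS family, and, for the third, AGATAA, read by the zinc-finger factors of the GATA family. In the same window, the first was found in 9.56% of the 32851 promoters of the table, the second in 23.3% and the third in 9.99%.
S100a8, chr3:90668821-90669070: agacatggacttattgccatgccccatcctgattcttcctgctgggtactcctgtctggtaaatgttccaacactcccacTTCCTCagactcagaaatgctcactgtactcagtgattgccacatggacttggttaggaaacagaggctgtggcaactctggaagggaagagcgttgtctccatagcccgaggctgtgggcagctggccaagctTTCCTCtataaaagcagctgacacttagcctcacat
S100a9, chr3:90695722-90695971: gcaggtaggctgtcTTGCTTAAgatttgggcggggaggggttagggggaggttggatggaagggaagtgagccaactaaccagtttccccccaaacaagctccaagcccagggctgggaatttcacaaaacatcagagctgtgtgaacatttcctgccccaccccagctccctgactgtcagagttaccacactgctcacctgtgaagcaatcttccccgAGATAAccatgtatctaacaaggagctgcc
Ngp, chr9:110419558-110419807: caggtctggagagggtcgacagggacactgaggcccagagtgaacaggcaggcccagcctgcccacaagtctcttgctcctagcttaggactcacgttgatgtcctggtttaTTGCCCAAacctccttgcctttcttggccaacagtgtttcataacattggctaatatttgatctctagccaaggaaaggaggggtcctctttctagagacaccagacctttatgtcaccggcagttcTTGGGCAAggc
Ms4a2, chr19:11623720-11623969: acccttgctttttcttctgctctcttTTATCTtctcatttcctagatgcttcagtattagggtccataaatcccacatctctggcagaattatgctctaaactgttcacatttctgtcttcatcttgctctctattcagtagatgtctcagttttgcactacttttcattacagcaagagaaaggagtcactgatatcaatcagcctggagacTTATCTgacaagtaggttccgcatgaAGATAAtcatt
Counted from the start, S100a8 held GAGGAA at positions -170 and -36, and S100a9 held TTGCNNAA at -236 and AGATAA at -30. Ngp held TTGCNNAA at -138 and -11, and Ms4a2 held AGATAA at -224, -37 and -11. The window of Camp held none of the 3. The RefSeq starts of S100a8 and Ngp lie downstream of the GENCODE gene starts, so these windows overlap the GENCODE genes in part. A match describes the letters only and is not a measured binding site.

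Most of the cluster's RNA signature was calprotectin. Counts were summed over the cells of a library, in the 5 libraries with at least 5 cells of the cluster (2, 4, 5, 6 and 7), and expressed as CPM of the sum. S100a8 stood at 89587, 77947, 69675, 122104 and 73418 CPM in those libraries. The mean was 86546 ± 21240 CPM (SD, n = 5), and library 6, which holds 4 of the 8 Ngp-rich cells, was the highest. S100a9 stood at 70933, 56997, 41356, 58244 and 53290 CPM (mean 56164 ± 10615, SD, n = 5). Together the pair supplied a median of 14.03% of the UMIs of a cluster 12 cell, with a range of 0 to 50.6%. Over all 43745 cells, 95.3% of the UMIs of these 2 genes were in cluster 12.

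The other genes that name the cluster were far less abundant. Retnlg, a secreted resistin-like protein of mouse granulocytes, stood at 20137, 4246, 10563, 7447 and 13088 CPM in libraries 2, 4, 5, 6 and 7 (mean 11096 ± 6046, SD, n = 5). Library 4, in which most cells lacked calprotectin, was the lowest. Csf3r, the receptor for granulocyte colony-stimulating factor, stood at 430, 566, 305, 276 and 521 CPM (mean 420 ± 128, SD, n = 5). G0s2, an inhibitor of triglyceride lipase, stood at 1674, 378, 609, 276 and 469 CPM (mean 681 ± 568.4, SD, n = 5), and library 2 was far above the rest. Without the 10 cells that lack calprotectin, 4 libraries remained, and the means were 92860 CPM for S100a8, 58579 for S100a9, 13363 for Retnlg, 405 for Csf3r and 777 for G0s2.

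All 5 of these markers, and all 15 further neutrophil markers on a second list, were at their highest of the 16 clusters in cluster 12. Over all genes with at least 10 UMIs in cluster 12 this held for 15.3%, and since the clusters were made from these counts the figures carry no test. The next-highest cluster for S100a8 was cluster 10 at 159 CPM, a ratio of 539. For Retnlg it was cluster 10 at 4.23 CPM, a ratio of 2506. For G0s2 it was cluster 3, which leads in proximal tubule genes, at 156 CPM, a ratio of 3.96. G0s2 thus marks this cluster less sharply than the other 4 do, as the plot of the markers over the 16 clusters shows. Ly6g, the surface antigen used to sort mouse neutrophils, had 22 UMIs in 11 cells and was at 0 in the other 15 clusters.

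**Figure D2:**
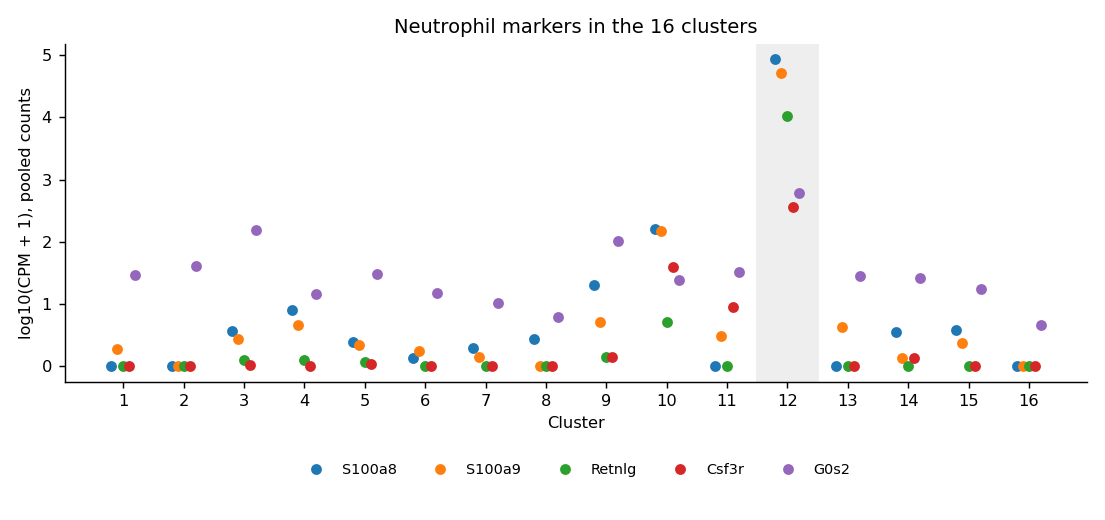
Level of the 5 neutrophil markers in each of the 16 clusters, as log10 of CPM of the pooled counts plus 1. Cluster 12 (shaded) is highest for all 5, with S100a8 at 85906 CPM, and the nearest other cluster is cluster 10 for 4 of them and cluster 3 for G0s2.

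Detection in single cells was compared after each cell was thinned to 700 UMIs. S100a8 was then found in 86.5% of cluster 12 cells (exact 95% interval 76.5 to 93.3) and in 0.140% of the 26482 cells of cluster 3. With all UMIs the shares were 86.5% and 0.514%, at median depths of 1453.5 and 2281 UMIs. Retnlg was found in 68.9% (57.1 to 79.2) and Cxcr2, the receptor for CXCL1 and CXCL2, in 27.0% (17.4 to 38.6), against 0.00378% and 0.00755% in cluster 3. With all UMIs, Retnlg was in 75.7% and Cxcr2 in 48.6% of cluster 12 cells. G0s2 was found in 25.7% of cluster 12 and 8.504% of cluster 3, the highest share of the 5 markers in cluster 3. Whether this is expression in those cells or free RNA was not tested.

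Outside cluster 12, 337 of 43671 cells (0.772%) held a UMI of S100a8 or S100a9, and 6 held at least 10. Among the 6, 1 cell of cluster 10 in library 6 held 369 UMIs of the pair and 64 of Ngp, Camp and Ltf together, out of 4129. The Ngp-rich cells of cluster 12 held 498 to 1545 UMIs of the pair and 63 to 334 of the 3 granule genes, out of 1982 to 3654. The cell thus reached their granule counts but not their counts of the pair. Another cell of cluster 10 in the same library held 127 UMIs of the pair and none of the 3 granule genes. These cells supply most of the 514 S100a8 and S100a9 UMIs of cluster 10.

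The 8 Ngp-rich cells held nearly all UMIs of Ngp, Camp, Ltf and Chil3. Camp had 457 UMIs in these 8 cells and 0 in the 56 other calprotectin-positive cells, at least 736-fold higher against a floor of 3 UMIs over the 56 cells. Ltf, which codes for lactoferrin, had 69 UMIs in all 8 cells and 0 in the 56 (at least 111-fold higher). Ngp, which chose the cells, had 550 and 2 UMIs. Chil3, a chitinase-like lectin of immature myeloid cells, had 24 UMIs in 3 of the 8 cells and 0 in the 56. It is not particular to these cells, since it stood at 225 CPM in cluster 10 against 161 in cluster 12. Per cell, Ngp ranged from 34 to 148 UMIs, Camp from 6 to 165 and Ltf from 1 to 21, and the 3 genes together were 1.94% to 11.3% of a cell's UMIs.

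Other granule genes were shared between the sets in unequal amounts. Lcn2, the iron-siderophore binding lipocalin, had 219 UMIs in the 8 cells and 83 in 27 of the 56, a ratio of 12.8 in CPM. Wfdc21 had 234 and 163 UMIs (ratio 6.94), Lyz2, which codes for lysozyme, 255 and 187 (ratio 6.59), and Cd177, a surface partner of proteinase 3, 11 and 5 (ratio 10.6). Mmp8, the neutrophil collagenase, had 33 and 41 (ratio 3.89), whereas Mmp9, the gelatinase of tertiary granules, had 13 and 35 (ratio 1.80). Hp, a secondary granule gene that codes for haptoglobin, had 38 and 115 UMIs (ratio 1.60), below the ratio of Mmp9. Few primary granule genes could be read. Cd63, a tetraspanin of granule membranes, had 6 UMIs in the 8 cells, 54 in 24 of the 56 and 30 in the 10 calprotectin-free cells. Prtn3, which codes for proteinase 3, was at 0, and Prss57 had 1 UMI in the whole cluster. Mpo, Elane, Ctsg, Bpi and Ms4a3 were not analysed here.

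The 8 cells were also richer in calprotectin RNA. S100a8 had 309 to 1257 UMIs per cell among them and 2 to 463 among the 56, and the pair made up a median of 41.9% of their UMIs against 14.1%. Both ranges overlap, since the 56 cells reached 50.6%. S100a8 outnumbered S100a9 by 2.14 to 1 over the pooled UMIs of the 8 cells and by 1.37 to 1 over the 56. The pair of cells with the highest S100a8, both in library 6, held 1148 and 1257 UMIs of it with 292 and 288 of S100a9. These had 0 and 2 UMIs of Retnlg, whereas the other 6 Ngp-rich cells held 38 to 165. They also held 9 and 13 of the 24 Chil3 UMIs.

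**Figure D3:**
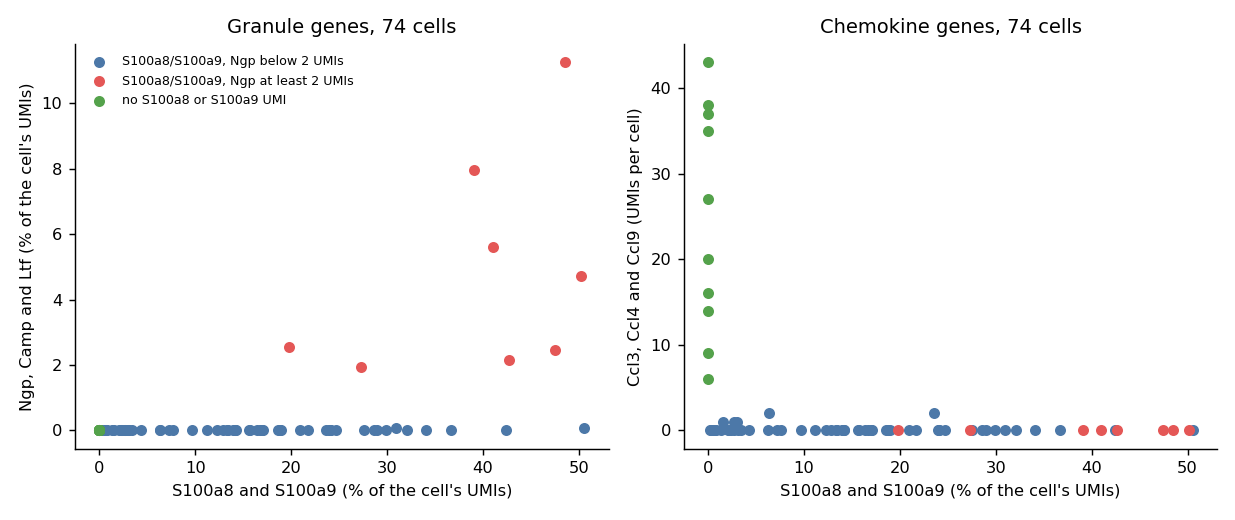
Each point is 1 of the 74 cells of cluster 12. Left, Ngp, Camp and Ltf against S100a8 and S100a9, each as a percentage of the cell's UMIs; the 8 Ngp-rich cells lie between 1.94% and 11.3% and the others at or near 0. Right, summed UMIs of Ccl3, Ccl4 and Ccl9, which are 6 to 43 in the 10 cells without calprotectin and at most 2 in the rest.

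Several cytokine and receptor genes were found mainly in the 56 remaining calprotectin-positive cells, and others leaned to the Ngp-rich cells. Il1b, the cytokine interleukin 1 beta, had 312 UMIs in 53 of the 56 cells and 1 UMI in the 8 Ngp-rich cells. Cxcl2, a neutrophil-attracting chemokine, had 177 UMIs in 28 of the 56 cells and 0 in the 8 (at least 12.2-fold higher). Csf3r had 52 UMIs in 32 cells against 1, and Dusp1, a phosphatase induced early after stimulation, 210 in 54 cells against 3. Stfa2l1, a stefin protease inhibitor, had 53 UMIs and Clec4d, a C-type lectin receptor, 30, both with 0 in the 8 cells (at least 3.65-fold and 2.07-fold higher). Cxcr2 had 46 UMIs in 30 cells and 4 in 3 of the 8, a ratio of 2.38. Cebpb, a transcription factor of mature myeloid cells, had 158 and 13 UMIs, a ratio of 2.51. The other way, Pirb, an inhibitory immunoglobulin-like receptor, had 12 UMIs in the 8 cells and 10 in the 56 (ratio 5.80 toward the 8), and Fcgr3, an activating Fc receptor, 14 and 20 (ratio 3.38). Fcer1g, the common Fc receptor gamma chain, had 49 and 109 (ratio 2.17). The plot of genes in each cell shows little overlap of Il1b and Cxcl2 with Ngp: 1 Ngp-rich cell held 1 UMI of Il1b, and both of the 56 cells with 1 UMI of Ngp held Il1b or Cxcl2.

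The 10 cells without calprotectin lacked every one of the 5 neutrophil markers: S100a8, S100a9, Retnlg, Csf3r and G0s2 were each at 0 UMIs, in 14708 UMIs in all. They also had 0 of Lyz2, Il1b, Cxcl2, Lcn2 and Wfdc21. They held instead the chemokine genes Ccl9 (91 UMIs in all 10 cells, 0 in the other 64), Ccl3 (97 UMIs in all 10 cells, 2 UMIs in 1 other cell) and Ccl4 (57 UMIs in 8 cells, 5 in 4 others). Ms4a2 had 18 UMIs in 8 of the 10 cells and Gata2, a transcription factor of blood progenitors, mast cells and basophils, 11 UMIs in 6, and both were at 0 in the other 64. Hdc, the histamine-forming histidine decarboxylase, had 26 UMIs in 9 of the 10, and Ifitm1, an interferon-induced membrane protein, 103 in all 10. Hdc and Ifitm1 were also found in calprotectin-positive cells, in 30 and 31 of the 64. Csrp3, a muscle LIM protein, with 16 UMIs in 9 of the 10 cells, and Cd7, a lymphocyte surface protein, with 26 in 8, were singled out after their values were seen. Neither had a UMI in the other 64.

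The label of neutrophil does not describe these 10 cells by the 5 leading markers. Of the 15 further neutrophil markers they held 51 UMIs (3468 CPM, against 8983 in the 56 cells). Those were of Hdc (26), Pglyrp1 (9), Grina (7), Cxcr2 (5) and Msrb1 (4), and the other markers of that list were at 0. Of a list of 10 markers of eosinophils, basophils and mast cells, 2 (Ms4a2 and Gata2) were measured and both were found. Siglecf, Epx, Prg2, Ccr3, Mcpt8, Cpa3, Fcer1a and Tpsb2 were not analysed here. With under 3 detected markers the cells are left without a name. They had a median of 1488 UMIs and 683 genes each, against 1387 and 504 in the 56 cells. Their mitochondrial share was 2.08% to 28.4% of UMIs, with a median of 5.79% against 10.9% in the 56 cells. They made up 0.148% of the cells of library 4 and 0.145% of library 3, and at most 0.0340% of any other. Libraries 3 and 4 were also those with the largest shares of the lymphocyte clusters 14 (10.8% and 13.98%) and 15 (3.76% and 3.07%).

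**Figure D4:**
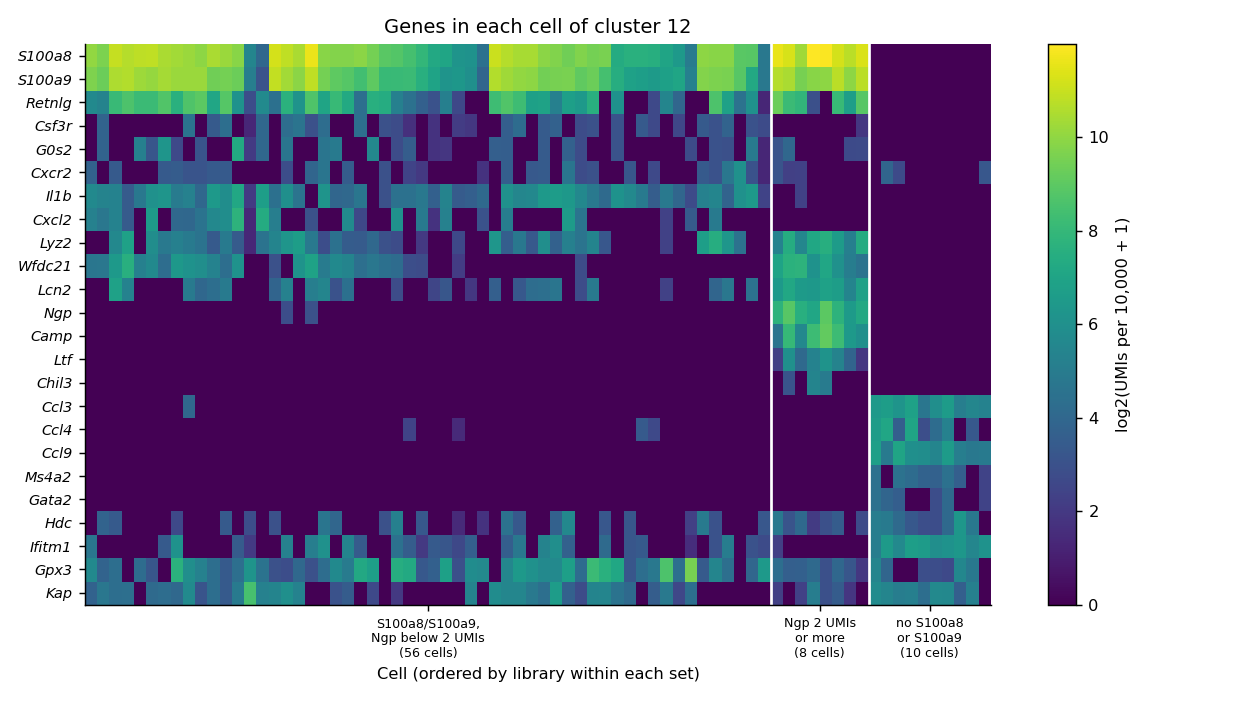
Each column is 1 cell of cluster 12 and each row 1 gene, coloured by log2 of depth-scaled UMIs plus 1. White lines separate the 56 calprotectin-positive cells with under 2 UMIs of Ngp, the 8 Ngp-rich cells and the 10 cells with no S100a8 or S100a9, which hold Ccl3, Ccl9 and Ifitm1 instead.

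Clusters 10 and 11 were the other myeloid clusters, and cluster 12 was set against each. A gene was counted as higher or lower where every library sum of cluster 12 lay above or below every sum of the other cluster, among genes with at least 10 UMIs in both together. Against cluster 10 (549 cells, 7 libraries), 0.855% of 9124 genes were higher and 9.52% lower. Against cluster 11 (228 cells, 7 libraries), 1.57% of 6380 genes were higher and 3.45% lower. The sums of cluster 12 were shallow, at 10597 to 52544 UMIs, so a low gene often reads 0 in them. After thinning each cell to 700 UMIs the genes lower than in cluster 10 numbered 285 in place of 869. The rule asks every sum to clear every other, so leaving out any library can only add genes. Without library 4, the shallowest, 165 genes in place of 78 were higher than in cluster 10. Against cluster 11, 157 in place of 100 were then higher and 388 in place of 220 lower. Whether the depth or the cells of library 4 play a part was not tested. Without library 6, 137 were higher than in cluster 10. Without the 10 calprotectin-free cells, which also takes library 4 under 5 cells, 160 were. Cluster 12 sums scaled with trimmed means of log ratios (TMM) or with size factors moved the median log2 fold of all genes by -0.39 or -0.48 against cluster 10 and by -0.22 or -0.30 against cluster 11. No member of the gene lists that was higher or lower changed sign. Of 37 list members higher than in cluster 10, 33 stayed without overlap under TMM and 29 under size factors, and of 43 higher than in cluster 11, 42 and 37 did. S100a6, Cd14, Cd81 and Hmgb2 against cluster 10, and Fos against cluster 11, were lost under both scalings. Hp, Grina, Gadd45b and Sorl1 against cluster 10, and Il1b, Ccrl2, Grina, Hmgb2 and Pkm against cluster 11, were lost under size factors. Of the members lower than in cluster 11, Fcgr2b was lost under both scalings and Bcl2a1a under size factors. All of these counts are descriptions, with no test.

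Neutrophil genes separated cluster 12 from both. All 5 markers were higher than in cluster 10 and than in cluster 11, and this also held without the 10 calprotectin-free cells and without the 8 Ngp-rich cells. Of the 15 further markers, 11 were higher than in cluster 10 (Cxcr2, Mmp9, Ly6g, Hdc, Trem1, Clec4d, Wfdc21, Stfa2l1, Gm5483, Pglyrp1 and Grina) and 12 than in cluster 11. After thinning these numbers were 5 and 6 out of 13 tested. Without the Ngp-rich cells, 14 were tested, 6 were higher than in cluster 10 and 8 than in cluster 11, and Ifitm6, an interferon-induced membrane protein, was lower than in cluster 10. Cxcr2 stood at 383, 94.4, 324, 226 and 834 CPM in libraries 2, 4, 5, 6 and 7, against at most 5.88 in any library of cluster 10 and 0 in cluster 11. Hdc stood at 335, 661, 704, 677 and 626 CPM, and the highest library of cluster 10 was at 30.6. Of its 101 UMIs, 26 were in the 10 calprotectin-free cells. Its level was 1768 CPM in those, 870 in the 8 Ngp-rich cells and 495 in the 56 others, so it is not particular to the calprotectin-positive cells. Pglyrp1, a bactericidal peptidoglycan-binding protein of granules, ran from 685 to 1722 CPM against 12.4 to 419 in cluster 10, so the groups do not overlap.

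Granule genes were described by class. Among 9 secondary granule genes with enough UMIs, Lcn2, Mmp8 and Hp were higher than in both clusters, and Lyz2 was lower than in cluster 10. Hp stood at 957, 1227, 799, 1229 and 1304 CPM against 130 to 455 in cluster 10 and 0 in cluster 11. Lyz2 stood at 2392, 2925, 1675, 4112 and 5684 CPM against 7949 to 19205 in cluster 10, with no overlap. Ltf, Camp and Ngp overlapped, because libraries 2 and 4 held 0, 0 and at most 94.4 CPM of them. Ctsc, which activates the serine proteases of primary granules, had 2 UMIs and was lower than in both clusters. Among 10 genes of tertiary granules and secretory vesicles, Mmp9 and Arg2, an arginase, were higher than in both clusters and Cd14, a lipopolysaccharide co-receptor, than in cluster 10.

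Of 14 growth factor and chemoattractant receptors tested against cluster 10, 4 were higher and 3 lower, and of 13 against cluster 11, 2 were higher and 3 lower. The rest overlapped. Beside this, 0.855% of all genes were higher and 9.52% lower than in cluster 10, and 1.57% and 3.45% than in cluster 11. Csf3r and Cxcr2 were higher than in both clusters, and C5ar1, the receptor for complement C5a, and Ccr1, a receptor for CCL3 and CCL9, were higher than in cluster 10. Ccr2, Cx3cr1 and Csf1r, receptors of monocytes and macrophages, were lower than in both, with 0, 1 and 4 UMIs in cluster 12. Among cytokines, Il1b stood at 3970, 1510, 1656, 2181 and 1721 CPM, above every library of cluster 10 (43.2 to 242) and cluster 11 (0 to 615). Cxcl2 stood at 3826, 472, 1180, 527 and 209 CPM, above cluster 10 (0 to 40.4) but overlapping cluster 11 (0 to 519). Osm, the cytokine oncostatin M, was higher than in both, at 52.1 to 670 CPM. The lowest of these values is 1 UMI among the 19178 of library 7, so the call rests on few molecules. Of the 53 Osm UMIs, 5 were in the calprotectin-free cells. The largest Il1b and Cxcl2 values were both in library 2, which holds no Ngp-rich cell and no cell without calprotectin.

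Most monocyte and macrophage markers were low or at 0. Of 9 monocyte markers, 7 were lower than in cluster 10, with a median log2 fold of -3.81 beside -0.25 over all genes tested, and Ccr2, F13a1, Ms4a6c and Fn1 were at 0. The other 2, Lst1 (91 UMIs in 46 cells) and Ly6c2 (21 UMIs in 12 cells), overlapped with cluster 10. Plac8 had 31 UMIs, 18 of them in the 10 calprotectin-free cells. All 9 macrophage and dendritic markers with enough UMIs were lower than in cluster 11 (median log2 fold -8.54 beside -0.27 over all genes), and C1qa, C1qb and C1qc, the subunits of complement C1q, were at 0. Of 8 tested against cluster 10, 4 were lower and Cd81, a tetraspanin with 24 UMIs in 14 cells, was higher. Cd74, the invariant chain of MHC class II, stood at 47.8, 94.4, 171, 251 and 0 CPM against 10108 to 72271 in cluster 11. Its 21 UMIs included 18 in 2 Ngp-rich cells.

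**Figure D5:**
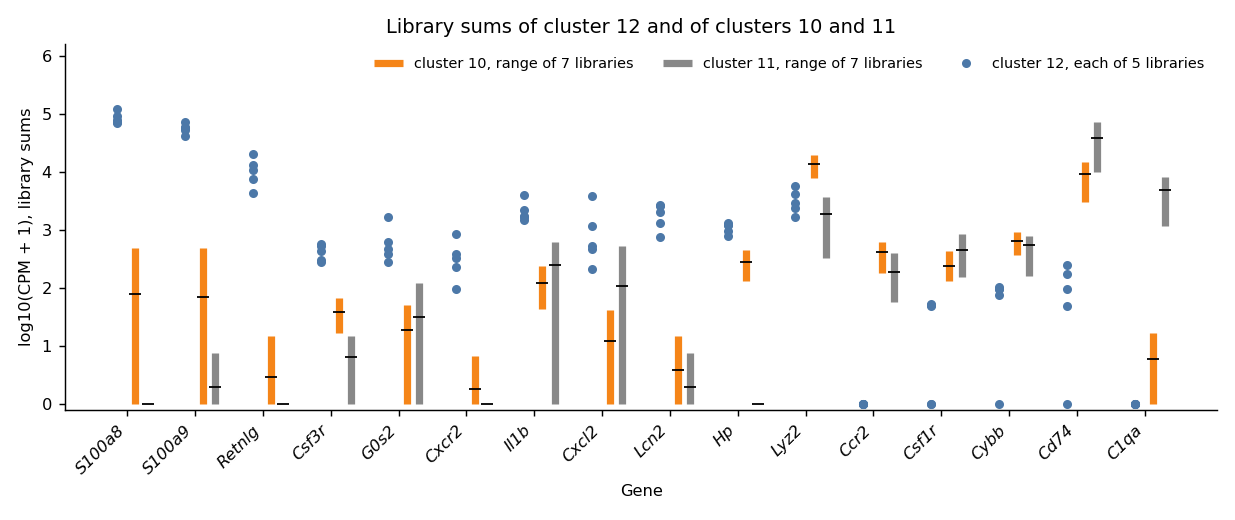
Library sums of 16 genes as log10 of CPM plus 1. Points are the 5 libraries of cluster 12, bars the range over the 7 libraries of cluster 10 (orange) and cluster 11 (grey), and black ticks their means. Neutrophil genes from S100a8 to Cxcr2 lie above both bars, and Ccr2, Csf1r, Cybb and Cd74 lie below both.

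Oxidase, pattern receptor and adhesion genes mostly overlapped with the other myeloid clusters. Cybb, the catalytic subunit of the phagocyte NADPH oxidase, stood at 95.7, 0, 95.2, 75.2 and 104 CPM and was lower than in cluster 10 (375 to 924) and cluster 11 (159 to 799). Its partners Cyba, Ncf1, Ncf4 and Rac2 overlapped with both clusters. Among 8 S100 genes, S100a8, S100a9, S100a6 and S100a11 were higher than in both clusters, and S100a4, with 2 UMIs, was lower than in cluster 10. Tyrobp, the signalling adaptor of many myeloid receptors, was present in all 74 cells and was among the 12 most abundant genes. Itgam, the integrin CD11b, had 19 UMIs and overlapped with the other clusters. Of 13 adhesion genes, Itga4 and Icam1 were lower than in cluster 10, and Cd44 was higher than in cluster 11. Itga4 had 2 UMIs in cluster 12 and Icam1 had 0. Over all genes tested, 0.855% were higher and 9.52% lower than in cluster 10, and 1.57% and 3.45% than in cluster 11. Of 20 pattern and Fc receptor genes, Cd14, Clec4d, Clec5a and Trem1 were higher and Fcgr2b and Clec4n lower than in cluster 10. The lower 2 are near the share over all genes, and Clec4n had 0 UMIs in cluster 12. Against cluster 11, Clec4d, Trem1 and Trem3 were higher and Fcgr2b and Fcgr1 lower. The lower Fcgr2b, an inhibitory Fc receptor, overlapped with cluster 10 once the 10 calprotectin-free cells were left out, and with cluster 11 under both scalings.

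Genes of early response, interferon and survival were described from lists. Junb was higher than in both clusters, at 2105, 2359, 971, 1103 and 2294 CPM, and Dusp1 was higher than in cluster 10 and Fos than in cluster 11. Jun was lower than in cluster 11, with 10 of its 17 UMIs in the calprotectin-free cells, and the rest of the 13 early genes overlapped. Of 17 interferon-response genes, 2 were higher and 4 lower than in cluster 10, beside 0.855% and 9.52% of all genes. Ifitm1 and Slfn4 were the higher ones, and the lower ones included Ifitm3, Irf7 and Bst2. Ifitm1 stood at 813, 5285, 1028, 777 and 1408 CPM, and library 4 with its 4 calprotectin-free cells was the highest. Mcl1, the survival factor on which neutrophils depend, had 57 UMIs in 34 cells and overlapped with both clusters. Leaving out the calprotectin-free cells, a choice made after seeing the data, also drops library 4 and makes non-overlap easier. Mcl1 then lay above every library of both clusters, and Bax, of the same list, below every library of cluster 10. Gadd45b, also of that list, was higher than in cluster 10 with these cells and overlapped without them. Many members of other lists changed as well, so no pattern of survival genes is read from these changes. Bcl2, Bcl2a1d and Casp8 were at 0. Among 10 cell-cycle genes, 7 were at 0, including Mki67, Top2a and Cdk1, and the other 3 had 4 UMIs together. None of the 16 oxidative phosphorylation genes and none of 16 glycolysis genes differed from cluster 10 without overlap. Irf8, which directs monocyte and dendritic fate, had 1 UMI and was lower than in both clusters, and among other myeloid transcription factors Cebpb and Klf2 were higher than in cluster 11. Of lipid mediator and extracellular trap genes, Hmgb2 was higher than in cluster 10, and Alox5ap, Hmgb2, Anxa1 and Anxa2 than in cluster 11. Of 12 actin cytoskeleton genes, Sorl1 was higher than in both clusters and Gmfg than in cluster 11. In plain CPM 0 of the 12 were lower than in cluster 10, but with TMM scaling 8 were, so this list depends on the scaling. TMM also moved the median log2 fold of all genes against cluster 10 by -0.39. The share of all genes lower under TMM is not given here, so the 8 are not read as particular to this list. Pkm was the 1 glycolysis gene higher than in cluster 11.

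The cluster as a whole had the lowest median of the 16 clusters, at 1453.5 UMIs and 559.5 genes per cell. The 64 calprotectin-positive cells had the same median of 1453.5 UMIs, but the 8 Ngp-rich cells among them had a median of 2810.5, above the 2652 of cluster 10. Paired within the 5 libraries, the median UMI count was 0.476 times that of cluster 10, 0.597 times that of cluster 13, 0.649 times that of cluster 3 and 0.787 times that of cluster 11, and it was lower in 5 of 5 libraries in each case. In exact two-sided sign-flip permutation tests each of these 4 had p = 0.0625, the smallest that 5 libraries allow, and an adjusted p of 0.0938 over 6 comparisons, so none could pass 0.05. With sums of 3 cells allowed, library 1 entered, and the same 4 exact permutation tests had p = 0.0312 and an adjusted p of 0.0469. Against clusters 14 and 15 the ratios were 0.800 (exact permutation p = 0.250, adjusted p = 0.250) and 0.808 (exact permutation p = 0.125, adjusted p = 0.150), lower in 4 of 5 libraries. After thinning to 700 UMIs, a cluster 12 cell held a median of 333.5 genes, against 415 in cluster 10, 387 in cluster 11 and 385 in cluster 3.

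RNA of kidney tubule cells was present in the cluster. Markers of tubule segments made up 1.60% of its UMIs, against 0.709% in cluster 10, 0.923% in cluster 14 and 4.18% in cluster 3. Gpx3, the secreted glutathione peroxidase made by the proximal tubule, had 1151 UMIs, and at 700 UMIs per cell it was found in 74.3% of cluster 12, 67.8% of cluster 10 and 75.9% of cluster 11. It was unevenly spread, with 1110 of its UMIs in the 56 cells, 25 in the 8 Ngp-rich cells and 16 in the 10 calprotectin-free cells. The share of tubule markers ranged from 0.0949% to 8.84% of UMIs among the 56 cells, from 0.0842% to 0.682% among the 8 and from 0.0852% to 1.296% among the 10. In 3 of the 56 cells it was above 5%. Those 3 held 35 to 60 UMIs of S100a8 and S100a9 together. The limit of 5% is above the median share of a cell of cluster 3 (3.66%) and of cluster 5 (0.994%). Cells under the limit are therefore not free of tubule RNA. The share of tubule markers does not count S100g, which was in neither tubule list. S100g stood at 27625 CPM in cluster 5, the highest of the 16 clusters for Slc12a3. In cluster 12 it stood at 6008 CPM, against 1744 in cluster 10 and 3257 in cluster 11. Of its 894 UMIs in cluster 12, 875 were in the 56 cells. A cell of library 6 held 169 of them among 1228 UMIs, with a tubule share of only 0.489%. The part of tubule RNA in the other gene levels was not tested; without the 3 cells S100a8 averaged 99743 CPM and S100a9 64713 CPM.

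Lymphocyte markers were few. All 220 Jchain UMIs, from the joining chain of plasma cell immunoglobulins, were in 1 Ngp-rich cell of library 6 that also held 998 calprotectin UMIs, and all 32 Ccl5 UMIs were in 1 of the 56 cells. A total of 6 cells held at least 3 UMIs of a macrophage, B cell or T and natural killer cell list. Without them S100a8 averaged 93568 CPM. None of the proximal or distal tubule markers lay above or below clusters 10 and 11 without overlap, and of B cell, T cell and natural killer markers only Ly6d, a B cell surface gene, did, being lower than in cluster 10. Endothelial markers had 4 UMIs in all, with Emcn, Kdr, Plpp1, Flt1 and Plvap at 0, and platelet Pf4 and Gp1bb were at 0.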

How the data were processed

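The deposited file holds UMI counts per gene and cell, with the authors' cluster number for each cell. Cell Ranger 1.3, STAR and the GRCm38.p4 (mm10) build are named in the submitters' processing notes, with no order given. The members and gene lists were chosen with earlier results of these data known. Counts were summed over the cells of a cluster in each library with at least 5 of them, in Python 3.11.15 with numpy 2.4.6, scipy 1.17.1 and pandas 2.3.3. TMM factors came from edgeR 4.0.16 and size factors from DESeq2 1.42.0 (R 4.3.3), for scaling only. No gene was tested between clusters, since the clusters were made from the same counts. Cells were thinned to 700 UMIs to compare detection. Named genes were list members, the 12 most abundant genes, and the 15 that most exceeded the average level elsewhere. No doublet caller was run, and cells with at least 3 UMIs of another type's markers were left out as an alternative. The scripts were tested on simulated data. Leaving out the Ngp-rich or calprotectin-free cells, or those rich in tubule RNA, was chosen after seeing the data. Libraries held 4217169 to 49997616 UMIs. Some list members are not reported here.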

Additional observations from a re-analysis of the deposited data

Results flagged for a closer look

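In 10 of 27 sets of library values examined, 1 library lay far from the others of its group, where chance puts about 1 in 20 groups past the limit used. Many of these genes are read from the same few cells, so they are not separate events. Library 2 stood above the other 4 libraries for G0s2 (1674 CPM, next 609), Il1b (3970, next 2181) and Cxcl2 (3826, next 1180), and below them for Hdc (335, next 626). Library 4, where 4 of 7 cells lacked calprotectin, stood above the others for Ccl3 (4246 CPM, next 469), Ccl4 (2454, next 75.2), Ccl9 (3869, next 365), Ms4a2 (944, next 52.1) and Ifitm1 (5285, next 1408). Library 6, which held 4 of the 8 Ngp-rich cells, stood above the others for Camp (8725 CPM, next 1656).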

How the results depend on the processing

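No paired analysis was possible because the libraries cannot be linked to the replicate numbers of labelled groups; clusters were paired by library for UMIs per cell only. As a share of immune cells the cluster averaged 2.73%. On that base the correlations with clusters 10, 11, 14 and 15 were 0.709, 0.323, -0.665 and -0.54, and without the S100a8- and S100a9-free cells those with clusters 13, 14, 15 and haemoglobin were -0.10, -0.53, -0.62 and -0.55. Without the 2 libraries farthest from the median, cluster 14 gave -0.24. Leaving out each library in turn gave -0.587 to 0.0112 (cluster 10), -0.54 to 0.41 (11), -0.24 to 0.67 (13), -0.20 to 0.64 (14), -0.15 to 0.58 (15) and -0.0595 to 0.886 (haemoglobin). With 3 cells per library allowed, the log2 differences in UMIs per cell against clusters 3, 10, 11 and 13 were -0.70, -1.16, -0.42 and -0.70. S100a8 averaged 62380 CPM with size factors and 58076 without Ngp-rich cells. S100a9 averaged 44482 with TMM, 38525 with size factors and 43406 without Ngp-rich cells, and Csf3r 270 with size factors. Genes higher than in cluster 10 numbered 643 at a pooled fold of 2, 49 with TMM, 43 with size factors, 45 thinned, 36 with 3 cells, 161 with 8 cells and 160 without calprotectin-free cells. Genes lower numbered 1878 at that fold, 1444 with size factors and 285 thinned. Against cluster 11, 448 were higher at that fold, 62 thinned, 55 with 3 cells and 160 with 8 cells, and 1389, 89 and 450 were lower at that fold, thinned and with 8 cells. Leaving out each library gave 107 to 165 higher and 1048 to 1256 lower than in cluster 10, and 116 to 157 higher and 265 to 388 lower than in cluster 11. The cause of these differences was not tested. Depth limits every gene under about 10 UMIs in the sums.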
